A study of Homo sapiens with 10 samples.

Results

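The transcriptome described here is that of KOPT-K1, an established human cell line of T-cell acute lymphoblastic leukaemia (T-ALL), under DMSO, the solvent control of the study. It was chosen by its labels alone: the 3 total RNA libraries of cells that received DMSO for 45 minutes, out of 10 libraries in the series. The remaining 7 libraries are ribosome footprints or come from cells given silvestrol, a compound that blocks the RNA helicase eIF4A, at 25 nM, and they were not used here. All cells were grown in RPMI medium with 20% serum. Being 1 line in culture, it represents 1 leukaemia without its thymic or marrow surroundings. The labels do not say whether the 3 libraries came from separate cultures, so the spread between them may be technical. There is 1 group and no contrast, so levels are described and no test was made. Levels are deposited RPKM, reads per kilobase of gene after scaling to library depth. Levels of different genes are set side by side with a limit. The gene lengths used and the handling of reads shared between genes are not known. A gene counts as expressed here at a mean of at least 1 RPKM over the 3 libraries. Values after ± are SDs over the 3 libraries (n = 3), and a ratio of 2 genes is the mean of its 3 library ratios.

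T cells arise in the thymus from marrow-derived progenitors that lose stem cell and myeloid genes under NOTCH1 signalling, rearrange their antigen receptor genes, and pass through a cortical stage marked by CD1 proteins and by CD4 together with CD8. T-ALL is a proliferation of cells held at one of these stages. In many cases a chromosomal rearrangement places an oncogenic transcription factor, such as TAL1, LMO1, LMO2, TLX1, TLX3 or a HOXA gene, under foreign control, and the factor found usually belongs to a single such family. Activating mutations of NOTCH1 and loss of the CDKN2A locus are frequent as well.

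The 5 genes taken as markers were all expressed, against 22.1% of all genes and 51.4% of protein-coding genes. CD3D, a signalling chain of the T-cell receptor complex, was at 688, 672 and 665 RPKM in libraries 1, 2 and 3. LCK, the SRC-family kinase that phosphorylates the receptor chains, was at 210, 213 and 209 RPKM. CD1B, a lipid-presenting molecule of cortical thymocytes, was at 113, 104 and 104 RPKM. LMO2, a LIM-domain bridging factor and T-ALL oncogene, was at 40.8, 41.6 and 40.3 RPKM, and the receptor NOTCH1 was at 23.6, 25.6 and 24.2 RPKM. The 3 libraries lay close together for each marker, and the ranges of the 5 markers did not overlap. The markers, like the gene lists, were chosen with earlier results of these data known. Their expression is therefore no independent check of the label. In bulk RNA a gene used by few cells and a low level in every cell cannot be told apart, here or in the values that follow.

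Promoter sequences of 3 genes of different levels are shown as examples: a T-cell gene of very high level, a broadly used receptor gene of medium level, and an oncogene of the LMO family listed at 0. Whether the sequences set these levels was not tested. Each is the stretch of 250 bases before the start site on its own strand, from RefSeq on build GRCh38.p14, while the deposited values come from hg19. Capitals mark matches to any of 7 short motifs, searched on either strand. Factors of the SP family bind the GC box, spelled GGGCGG. The motif of the RUNX proteins was taken as TGTGGT and that of the ETS proteins as CCGGAAG. For the TATA box the letters were TATAAA. Those searched for the GATA factors were AGATAA. The E box bound by bHLH proteins was represented by CAGCTG, and the site of the TCF and LEF factors by CTTTGAA.
CD3D, chr11:118342706-118342955, minus strand: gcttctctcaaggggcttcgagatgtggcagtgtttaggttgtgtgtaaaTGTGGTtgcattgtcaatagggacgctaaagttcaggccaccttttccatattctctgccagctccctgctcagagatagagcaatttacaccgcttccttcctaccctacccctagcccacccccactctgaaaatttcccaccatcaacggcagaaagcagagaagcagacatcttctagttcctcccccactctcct
NOTCH1, chr9:136546049-136546298, minus strand: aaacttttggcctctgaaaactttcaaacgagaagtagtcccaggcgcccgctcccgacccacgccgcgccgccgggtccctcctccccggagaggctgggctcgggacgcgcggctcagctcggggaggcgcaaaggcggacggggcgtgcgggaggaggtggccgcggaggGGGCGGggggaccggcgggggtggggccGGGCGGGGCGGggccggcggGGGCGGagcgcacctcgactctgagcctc
LMO1, chr11:8268788-8269037, minus strand: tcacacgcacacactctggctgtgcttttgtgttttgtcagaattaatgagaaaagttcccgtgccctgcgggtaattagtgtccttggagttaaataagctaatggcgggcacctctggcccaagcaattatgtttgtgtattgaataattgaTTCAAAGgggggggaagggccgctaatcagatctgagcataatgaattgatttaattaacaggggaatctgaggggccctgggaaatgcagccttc

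The CD3D stretch held 4 CG dinucleotides and 1 match to the RUNX motif. The NOTCH1 stretch held 33 CG dinucleotides and 4 matches to the GC box, with a GC content of 76%. The LMO1 stretch held 5 CG dinucleotides and 1 match to the TCF/LEF motif, and LMO1 was listed at 0 in all 3 libraries. Such matches are letters only and show no binding. Over the 10986 protein-coding genes with a single start in the table, the ratio of observed to expected CG had a median of 0.855 in expressed genes (5767 genes), 0.598 in genes above 0 and under 1 RPKM (3258 genes) and 0.286 in genes listed at 0 (1961 genes). The GC box was found before 70.9% of expressed genes and 29.02% of those listed at 0, and the ETS motif before 20.7% and 2.40%. The TATA motif went the other way, at 4.37% and 24.0%. The 32 promoters of expressed genes of the T-cell lists had a median CG ratio of 0.245. The RUNX motif preceded 10 of these 32 genes and 3 of the 9 T-cell list genes under 1 RPKM, against 9.16% of all promoters.

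Of 55889 gene IDs in the files, 12345 were expressed, and 24148 were listed at 0 in all 3 libraries. Among 19116 protein-coding genes, 9831 were expressed, 6079 were above 0 and under 1 RPKM, and 3206 were listed at 0. The expressed protein-coding genes had a median of 10.1 RPKM, and 421 of them reached 100 RPKM. Single libraries held 12335 to 12361 genes at 1 RPKM or more. Depth, estimated from the value of 1 read, was about 160500000 to 216800000 reads per library, which puts 3 reads on a gene of 2000 bases at 0.00692 to 0.00935 RPKM. Values far below that level rest on very few reads.

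The highest deposited values were those of mitochondrially encoded genes. In the files the values of these 37 genes all carry more than 3 digits, whereas all other values carry at most 3, so they were written differently, and whether they were computed like the rest is not known. They are set beside nuclear genes with that limit. The 37 genes, all expressed, held 16.2% ± 0.166 (SD, n = 3) of the summed RPKM. MT-ATP8, an ATP synthase subunit, had the highest mean, 6818 ± 258 RPKM, beside the cytochrome oxidase subunit MT-CO2 at 6598 ± 35.2 RPKM, which was the higher of the pair in library 3. MT-ATP8 shares bases with MT-ATP6, so the split between those neighbours depends on counting. Among nuclear protein-coding genes the highest were the glycolytic enzyme GAPDH (2350, 2360 and 2320 RPKM) and the cytoskeletal actin ACTB (1950, 1990 and 1880 RPKM). The actin ACTG1 and the ribosomal protein RPS12 were among the 5 highest, at 1487 ± 23.1 RPKM and 1483 ± 23.1 RPKM, and their libraries overlapped. The 20 highest nuclear protein-coding genes also included RPS19, TMSB4X, RPS16, TMSB10, TUBB, ENO1, RPS18, FTL, PCNA, ATP5F1B, RPL19, PFN1, EEF2 and TUBA1B, between 701 and 1280 RPKM. They are ribosomal proteins and an elongation factor, actin-binding and tubulin genes, enzymes of energy metabolism and the iron store FTL. PCNA, the sliding clamp of DNA replication, stood among them at 773, 758 and 764 RPKM. CD3D was the 22nd nuclear protein-coding gene by mean, and its libraries overlapped those of the chaperone HSP90AB1 (679, 660 and 672 RPKM). The 10 highest genes of any type held 12.8% ± 0.0904 of the summed RPKM, the 100 highest 31.0% ± 0.122, and the 1000 highest 60.6% ± 0.178 (SD, n = 3).

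All 24 genes of the proliferation list were expressed, with a median of 132 RPKM against 1.29 over all protein-coding genes. TYMS, which makes thymidylate, was at 366 ± 2.08 RPKM, the replicative helicase subunit MCM7 at 264 ± 3.61 RPKM, topoisomerase TOP2A at 162 ± 5.51 RPKM and the proliferation antigen MKI67 at 74.1 ± 3.99 RPKM. The lowest was the thymidine salvage kinase TK1 at 16.8 ± 0.5 RPKM. Its position far below TYMS held in each library. All 21 housekeeping genes were expressed too, from the general transcription factor TBP at 15.8 ± 0.321 RPKM to GAPDH.

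Transcripts of non-coding or unnamed IDs reached high levels, and their assignment is uncertain. Of 696 antisense genes expressed, 592 shared exon bases with a protein-coding gene on the other strand, 85.1%, against 45.4% of the 3858 antisense genes under 1 RPKM. No source used here says whether counting used strand, so reads of such a pair cannot be told apart. ENSG00000265401, the highest of them at 644 ± 12.5 RPKM, lies wholly within exons of the ubiquitin gene UBB (208 ± 2.65 RPKM). No antisense level is read as expression below.

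The T-cell receptor transcripts were concentrated in few segments. TRBC2, the second constant region of the beta chain, was at 2080, 2100 and 1980 RPKM, and ranked 13th of all genes. TRBC1, the other beta constant region, was at 0.110, 0.0969 and 0.196 RPKM, and the mean ratio of the pair was 16894. The 2 constant regions are near-identical, so the counting could have split their reads. The beta variable segment TRBV29-1 was at 1150, 1110 and 1140 RPKM. The next variable segments were TRBV11-1 at 81.2 ± 4.16 RPKM and TRBV28 at 16.3 ± 0.451 RPKM, so TRBV29-1 stood 14.0 times above the second, and 43 of 52 TRBV genes were under 1 RPKM. The joining segments gave the same picture. TRBJ2-1 was at 1010, 1060 and 1030 RPKM and TRBJ2-3, the next, at 72.4, 79.9 and 71.7 RPKM, a ratio of 13.9. Among the receptor genes analysed, which include the 8 TRBJ2 joining genes, TRBC2, TRBV29-1 and TRBJ2-1 were the 3 most abundant, and gene totals cannot show whether they lie on the same mRNA.

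Transcripts of the delta and gamma loci were present as well. TRDC, the delta constant region, was at 333, 316 and 322 RPKM. The delta variable segments were far lower, with TRDV1 at 1.51, 1.23 and 1.95 RPKM and TRDV2 at 0.680 ± 0.0648 RPKM. The joining segments TRDJ2 (197 ± 2.08 RPKM) and TRDJ3 (89.4 ± 3.75 RPKM) and the diversity segment TRDD1 (8.96, 11.5 and 17.1 RPKM) were higher than any delta variable segment. TRGC2, a gamma constant region, was at 76.8, 72.6 and 72.3 RPKM and TRGC1 at 1.57, 1.49 and 1.44 RPKM, 49.3 times lower. How the counting handled any reads shared by these constant regions is not known. The highest gamma variable segments were TRGV4 (25.9 ± 0.608 RPKM), TRGV8 (19.8 ± 2.01 RPKM) and TRGV3 (12.6 ± 0.436 RPKM), and TRGJ1 was the highest gamma joining segment at 5.71 ± 0.433 RPKM. The alpha locus was low: TRAV30 was the highest of 54 variable segments at 8.52 ± 0.273 RPKM, followed by TRAV18 (4.22 ± 0.158 RPKM) and TRAV41 (3.99 ± 0.260 RPKM), and all 58 TRAJ segments were under 1 RPKM, 44 of them listed at 0. The highest was TRAJ22 at 0.429 ± 0.0730 RPKM. The alpha constant region was not analysed here.

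Immunoglobulin segments differed by locus. IGHV4-34 was at 19.1, 20.2 and 21.4 RPKM, IGHV1-24 at 6.81 ± 0.732 RPKM and IGHV1-3 at 4.55 ± 0.463 RPKM. Of 86 heavy-chain V genes and pseudogenes 12 were expressed, 14.0% beside 22.1% of all genes. All 88 IGKV genes and pseudogenes were listed at 0, and the highest of 56 IGLV, IGLV5-52, was at 0.0978 ± 0.0437 RPKM. The kappa constant region IGKC was listed at 0 and the mu constant region IGHM was at 0.0418 ± 0.00824 RPKM.

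**Figure D1:**
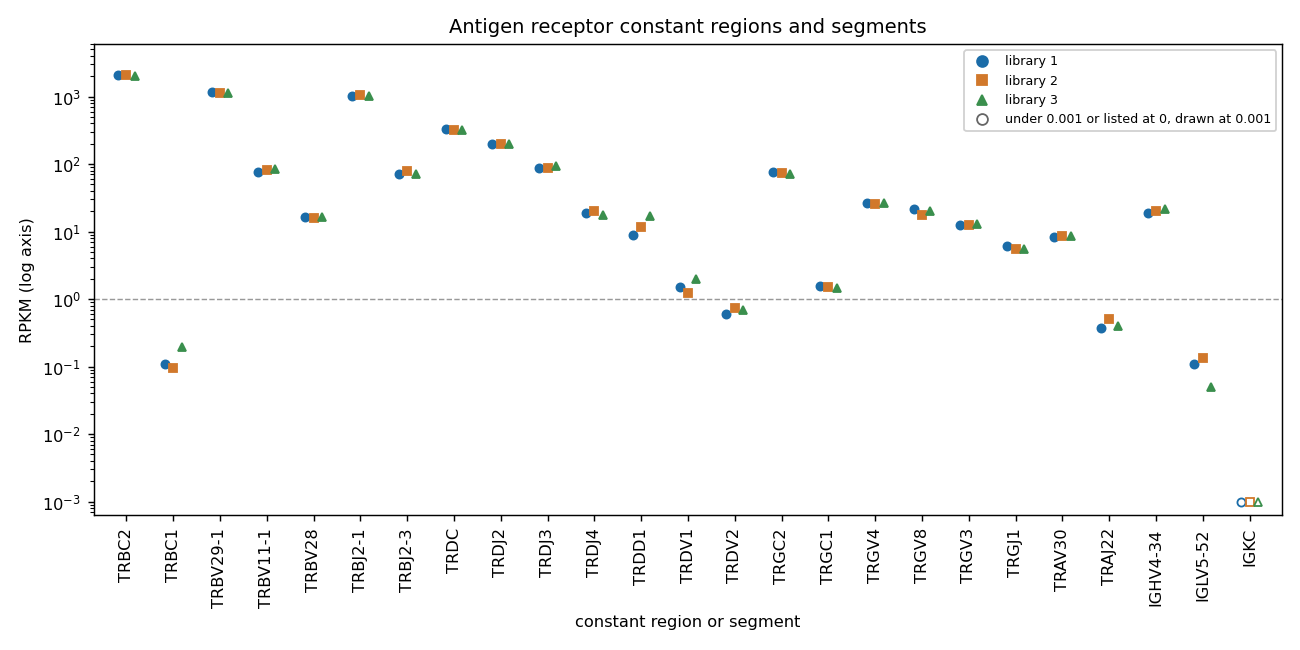
RPKM (log axis) of antigen receptor constant regions and of the highest segments in each of the 3 libraries (symbols); the dashed line is 1 RPKM and open symbols at 0.001 are values below it or listed at 0. TRBC2, TRBV29-1 and TRBJ2-1 all lie above 1000 RPKM, whereas TRBC1, TRAJ22 and IGLV5-52 lie below 1 RPKM.

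Of the 22 genes of the receptor complex and its proximal signalling, 21 were expressed, beside 51.4% of all protein-coding genes, with a median of 32.2 RPKM. The 4 CD3 chains followed the order CD3D, CD3E (249.7 ± 7.09 RPKM), CD3G (56.6 ± 0.702 RPKM) and CD247, the zeta chain (49.4 ± 0.173 RPKM). Each step was larger than the spread between libraries: CD3D was 2.70 times CD3E, CD3E was 4.41 times CD3G, and CD3G was 1.15 times CD247. The adaptor LAT was at 185 ± 5.51 RPKM, and the kinase ZAP70, which docks on phosphorylated CD3 chains, at 88.7, 94.5 and 87.4 RPKM. SYK, the related kinase, was listed at 0 in all libraries. The adaptor SH2D1A was at 93.7 ± 1.92 RPKM, overlapping ZAP70. PTCRA, the surrogate alpha chain of the pre-T-cell receptor, was low at 3.43, 4.01 and 3.59 RPKM, and the TEC-family kinase TXK was at 1.15 ± 0.0608 RPKM.

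Among 14 pan T-cell surface genes 13 were expressed, beside 51.4% of all protein-coding genes, with a median of 36.3 RPKM. The tetraspanin CD53 (75.8 ± 0.404 RPKM), the adhesion molecule CD2 (63.5 ± 0.306 RPKM), the scavenger receptor family member CD5 (59.4 ± 1.21 RPKM), the costimulatory receptor ICOS (57 ± 0.781 RPKM) and the sialomucin SPN (48.8 ± 0.8 RPKM) were the highest. CD28 (44.0 ± 1.14 RPKM) and CD7 (43.9 ± 2.38 RPKM) overlapped. CTLA4, the inhibitory relative of CD28, was at 0.0394, 0.0479 and 0.05 RPKM and was the member under 1 RPKM.

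Genes of different stages were then compared by their levels. Of 13 early progenitor genes 2 were expressed, 15.4% beside 51.4% of all protein-coding genes, with a list median of 0.0344 RPKM. BCL11A, a zinc finger factor of progenitors and B cells, was at 2.58, 2.71 and 2.51 RPKM and the adhesion receptor CD44 at 1.49, 1.34 and 1.33 RPKM. The cytokine receptor FLT3 was at 0.354, 0.339 and 0.332 RPKM. The progenitor antigen CD34 (0.0344 RPKM), the bHLH factor LYL1 (0.0601 RPKM), the IL2 receptor alpha chain IL2RA (0.0441 RPKM) and the myeloid and progenitor factor MEF2C (0.00435 RPKM) were under 0.1. KIT, the stem cell factor receptor, CD33 and HOPX were listed at 0.

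Of 18 cortical thymocyte genes 15 were expressed, 83.3% beside 51.4% of all protein-coding genes, with a median of 7.62 RPKM. ADA, the adenosine deaminase needed by thymocytes, was highest at 322, 327 and 313 RPKM. All 5 CD1 genes were expressed. CD1B was followed by CD1E (88.6, 87.3 and 85.1 RPKM), CD1C (14.1, 14 and 13.2 RPKM), CD1A (10.1, 9.50 and 9.44 RPKM) and CD1D (4.63, 4.57 and 4.67 RPKM), and no neighbours in this order overlapped. CD1B was 1.23 times CD1E, and CD1E was 6.32 times CD1C. DNTT, the polymerase that adds untemplated bases at receptor joints, was at 25.7, 25.9 and 26.2 RPKM. The recombinase genes were low: RAG1 was at 0.962, 0.891 and 1.04 RPKM and RAG2 at 0.212, 0.184 and 0.171 RPKM. CD8A, the alpha chain of the CD8 coreceptor, was at 24.9, 25.5 and 24.6 RPKM, whereas CD8B, which completes the alpha-beta form, was at 1.41, 1.54 and 1.55 RPKM, a ratio of 16.7. CD4 was at 5.46, 5.29 and 5.04 RPKM, 4.75 times below CD8A. The water and glycerol channel AQP3 (22.8 ± 0.709 RPKM) was also among the 6 highest.

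Of 23 matched late and mature T-cell genes 14 were expressed, 60.9%, near the 51.4% of all protein-coding genes, with a median of 2.17 RPKM. The granule membrane gene NKG7 was at 70.8, 72.7 and 67.7 RPKM. CD40LG, the ligand by which T cells help B cells, was at 22.3 ± 0.700 RPKM, and S1PR1, the receptor used to leave the thymus, at 10.3 ± 0.580 RPKM. CD69, which keeps cells from leaving, varied between libraries (7.56, 11.9 and 11.6 RPKM) and its mean did not differ from that of S1PR1 beyond that spread. GZMA (7.14 ± 0.604 RPKM), EOMES (4.63 ± 0.156 RPKM), IL7R (4.11 ± 0.147 RPKM) and PRF1 (2.17 ± 0.182 RPKM) were expressed, but GZMB (0.0237 RPKM), GZMK (0.0427 RPKM) and IFNG (0.0443 RPKM) were under 0.1. TBX21, the master factor of type 1 effector cells, and ZBTB7B, the factor of CD4 commitment, were listed at 0.

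**Figure D2:**
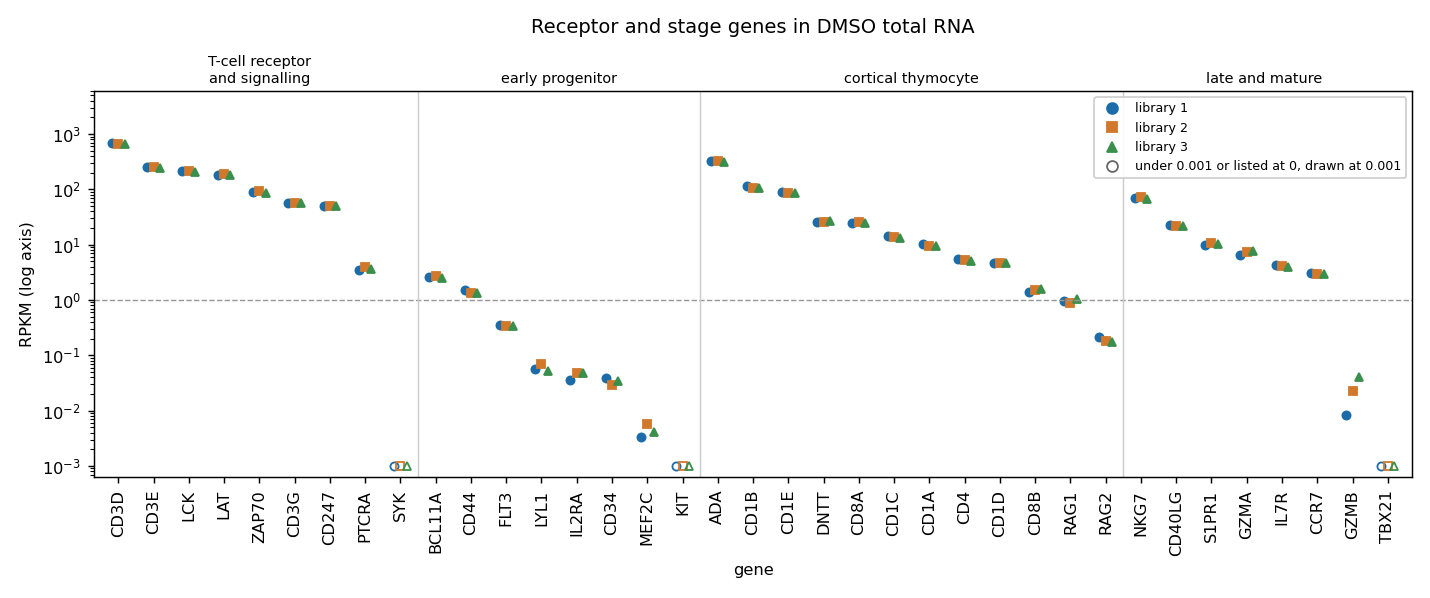
RPKM (log axis) of genes of the receptor complex and of 3 stages in each of the 3 libraries (symbols); the dashed line is 1 RPKM and open symbols at 0.001 are values below it or listed at 0. Cortical genes from ADA to CD8B lie above 1 RPKM, whereas of the early progenitor genes drawn only BCL11A and CD44 do.

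Of 40 transcription factors of the T lineage 29 were expressed, 72.5% beside 51.4% of all protein-coding genes, with a median of 9.94 RPKM. LEF1 and TCF7, the HMG-box factors of thymocyte commitment, were at 104, 102 and 101 RPKM and 77, 77.9 and 74.2 RPKM, and LEF1 was higher in every library. TCF7L2 was at 3.21 ± 0.0874 RPKM and TCF7L1 at 0.0738 RPKM. SOX4, another HMG-box factor, was at 82.7 ± 0.569 RPKM. ETS1 (75.5, 73.3 and 76.7 RPKM) and ETS2 (72.6, 74 and 74.2 RPKM) overlapped, and they led a family in which 13 of 26 matched members were expressed, 50.0% beside 51.4% of all protein-coding genes. The E proteins TCF3 (56.5, 60.4 and 56.2 RPKM) and TCF12 (19.7, 20.2 and 21.5 RPKM), which bind E boxes and drive receptor rearrangement, differed 2.82-fold. TCF4, the third E protein, was close to 0 at 0.000534, 0.000412 and 0.000557 RPKM. GATA3 (24.6, 25.4 and 23.8 RPKM) was the expressed member of 6 GATA factors, and GATA1, the erythroid member, was at 0.0129 RPKM. All 3 RUNX genes were expressed, in the order RUNX1 (15.2 ± 0.208 RPKM), RUNX3 (13.0 ± 0.404 RPKM) and RUNX2 (8.98 ± 0.112 RPKM), and all 5 Ikaros genes, led by IKZF1 (27.4 ± 0.208 RPKM) and IKZF2 (15.0 ± 1.07 RPKM). BCL11B, the zinc finger factor that seals T-cell commitment, was at 18.3, 19.2 and 18.9 RPKM. TOX, an HMG-box factor of CD4 selection, was at 50.0 ± 1.68 RPKM, with TOX4 at 10.9 ± 0.1 RPKM and TOX2 and TOX3 under 0.1. ID3 (13.2 ± 0.404 RPKM) and ID2 (2.09 ± 0.171 RPKM), which sequester E proteins, were expressed. ZEB1 was at 12.9 ± 0.551 RPKM and its paralogue ZEB2 was listed at 0. The innate-type factor ZBTB16 was at 0.000312 RPKM.

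Among the genes that rearrangements of T-ALL activate, LMO2 was the highest of its family. LMO2 was 16.5 times LMO4 (2.55, 2.50 and 2.39 RPKM), and LMO1 and LMO3 were listed at 0 in all libraries. Its known partners were expressed: the bridging protein LDB1 at 45.6, 47 and 46.5 RPKM, its stabilisers SSBP3 (37.0 ± 0.635 RPKM) and SSBP2 (5.90 ± 0.0400 RPKM), the E proteins TCF3 and TCF12, and GATA3. LDB2 was listed at 0. TAL1, the bHLH factor with which LMO2 works in blood progenitors, was at 2.32, 2.28 and 2.24 RPKM, 17.9 times below LMO2, and TAL2 was at 0.218, 0.278 and 0.257 RPKM. Both were above LYL1. Of 36 rearrangement genes 18 were expressed, 50.0%, close to the 51.4% of all protein-coding genes. Expressed members included LCK, the chaperone SET (183 ± 2.08 RPKM), MYC (82.3, 77.7 and 73.8 RPKM), MYB (48.3, 48.4 and 49.5 RPKM), the mRNA decay factor ZFP36L2 (33.6 ± 0.153 RPKM) and the Polycomb gene BMI1 (33.4 ± 1.22 RPKM). SET, KMT2A (10.2 ± 0.863 RPKM) and NUP98 (27.2 ± 0.781 RPKM) are expressed in many normal cells. Homeobox oncogenes were at or near 0: TLX3, NKX2-1, NKX2-5, HOXA9, HOXA10 and HOXA11 were listed at 0, and TLX1 had 0.00270, 0 and 0 RPKM. TLX2, which is not a classical T-ALL oncogene, was at 0.275 ± 0.00436 RPKM. OLIG2 and MYCN were also listed at 0, and SPI1, the myeloid ETS factor, was at 0.00696 RPKM.

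The genes beside LMO2, in the order of GENCODE release 29, had levels of their own. On one side were CAPRIN1 at 71.6, 69.5 and 73.1 RPKM, the acetyltransferase NAT10 at 49.3 ± 0.520 RPKM, ABTB2 at 1.27 ± 0.0709 RPKM, catalase CAT at 32.3 ± 0.603 RPKM and the epithelial ETS factor ELF5 at 0.000343 RPKM. On the other were FBXO3 at 1.69, 1.56 and 1.65 RPKM, the complement inhibitor CD59 at 5.03, 4.66 and 4.88 RPKM, C11orf91 at 0.0200 RPKM and KIAA1549L at 0.00608 RPKM; a further annotated gene there, AL049629.2, was not analysed here. LMO2 was below CAPRIN1 and above the next 2 genes on the FBXO3 side in every library. RNA levels do not show where a chromosome is broken, and no breakpoint can be read from them.

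Few HOX genes were expressed. None of 13 HOXA or 9 HOXD genes reached 1 RPKM, and the highest were HOXA7 at 0.0184 RPKM and HOXD12 at 0.0530 RPKM. In the HOXB cluster HOXB4 (3.05, 3.43 and 3.29 RPKM) and HOXB3 (1.66, 1.88 and 1.71 RPKM) were expressed, with HOXB2 at 0.846 ± 0.0865 RPKM, and in the HOXC cluster HOXC4 (1.69, 1.77 and 1.73 RPKM) was. The 7 matched NKX2 genes were all under 0.1 RPKM. MYC was the expressed member of its family, with MYCN and MYCL at 0, and its partner MAX was at 23.0 ± 0.208 RPKM. MYBL2, the cell cycle member of the MYB family, was at 214 ± 4.51 RPKM, above MYB, and MYBL1 was at 4.01 ± 0.159 RPKM.

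**Figure D3:**
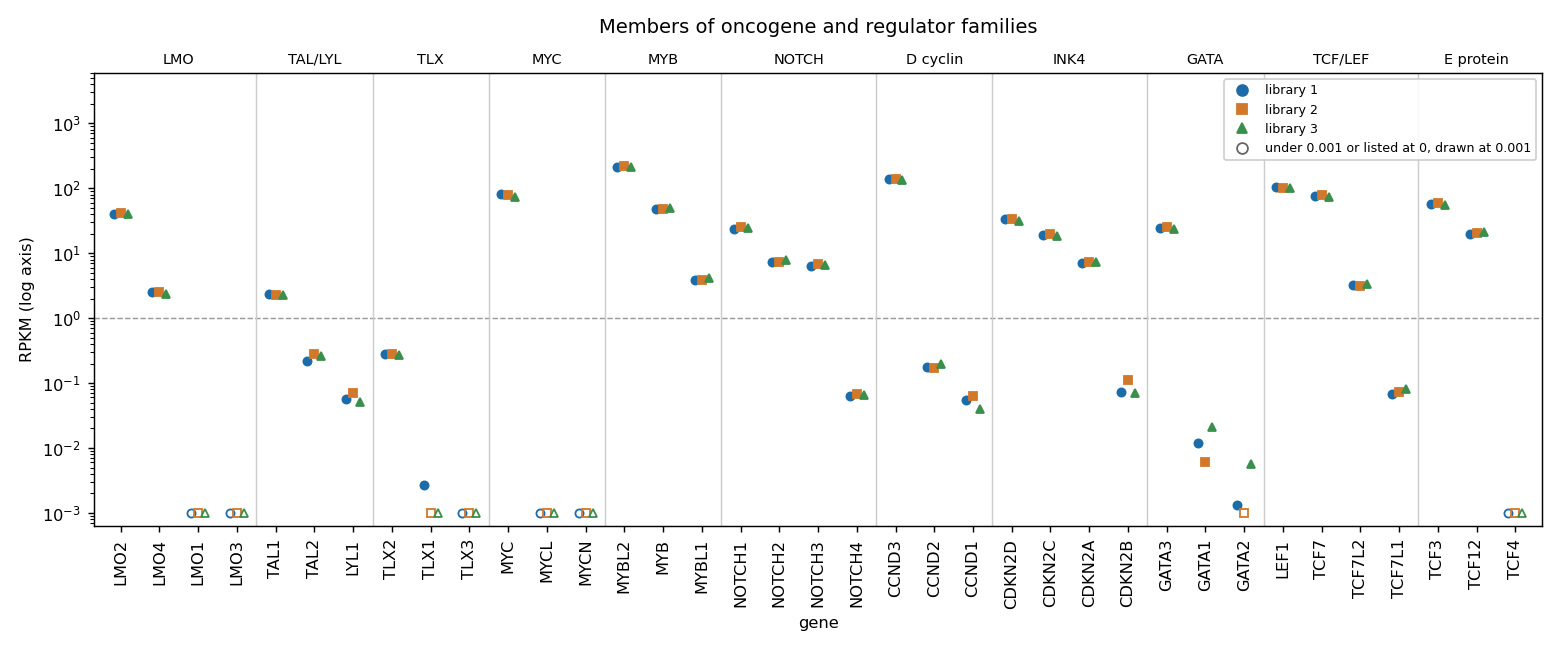
RPKM (log axis) of members of 11 gene families in each of the 3 libraries (symbols); the dashed line is 1 RPKM and open symbols at 0.001 are values below it or listed at 0. LMO2, MYC, CCND3 and GATA3 lie above 20 RPKM, while LMO1, LMO3, TLX3, MYCL and MYCN are listed at 0.

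The NOTCH pathway was represented by receptors and processing enzymes but not by ligands. After NOTCH1 came NOTCH2 (7.25, 7.23 and 8 RPKM) and NOTCH3 (6.31, 6.81 and 6.53 RPKM), whose libraries did not overlap, and NOTCH4 at 0.0648 ± 0.00235 RPKM. MFNG, a glycosyltransferase that tunes receptors, was the highest of 25 genes at 28.6 ± 0.702 RPKM, ahead of LFNG at 0.726 ± 0.103 RPKM. Of the proteases that release the active receptor, ADAM10 was at 11.4 ± 0.300 RPKM and ADAM17 at 8.70 ± 0.280 RPKM, and nicastrin (NCSTN) was at 17.7 ± 0.252 RPKM, while PSEN2 was at 0.0832 RPKM. The DNA-binding partner RBPJ was at 8.16 ± 0.206 RPKM and the coactivator MAML1 at 10.8 ± 0.1 RPKM. All 5 ligands were under 1 RPKM: DLL3 was at 0.763 ± 0.0839 RPKM, JAG1 at 0.0238 RPKM, DLL1 at 0.0179 RPKM, DLL4 at 0.00371 RPKM and JAG2 at 0.00158 RPKM.

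Of 26 NOTCH target genes 16 were expressed, 61.5%, near the 51.4% of all protein-coding genes, with a median of 3.14 RPKM. CCND3, a D cyclin, was at 137, 141 and 135 RPKM, and the others of the top 5 were MYC, the ubiquitin ligase DTX1 (48.9, 52 and 49.6 RPKM), SHQ1 (19.5 ± 0.265 RPKM) and DTX3 (19.3 ± 0.954 RPKM). HES4 was the highest of 10 HES and HEY repressors at 13.5, 15.7 and 14.1 RPKM. HES1, the repressor most studied in T-ALL, was at 1.89, 1.94 and 1.90 RPKM, below HES6 (2.60 ± 0.290 RPKM). NRARP, a feedback inhibitor, was at 0.00822 RPKM, HEY1 at 0.00459 RPKM and HES5 at 0.00118 RPKM. Target genes thus ranged from listed at 0, as HES3 was, to above 100 RPKM.

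Of 27 matched tumour suppressors of T-ALL 25 were expressed, 92.6% beside 51.4% of all protein-coding genes, with a median of 14.1 RPKM. CDKN2A, the cell cycle inhibitor often deleted in T-ALL, was at 7.17, 7.22 and 7.39 RPKM. CDKN2B, its neighbour and relative, was at 0.0736, 0.111 and 0.0706 RPKM. Of the exon bases of CDKN2A, 7.88% overlap the antisense gene CDKN2B-AS1, which was at 4.17 RPKM. Reads on those shared bases cannot be told apart. On one side of CDKN2A lay ENSG00000264545 (6.91 ± 0.217 RPKM), whose exons are shared with MTAP and CDKN2B-AS1, then the methylthioadenosine phosphorylase MTAP itself at 10.4, 10.1 and 10.5 RPKM, and the interferon genes IFNE, IFNA1 and IFNA8, all listed at 0. Beyond CDKN2B, DMRTA1, IZUMO3 and TUSC1 were listed at 0 and ELAVL2 was at 0.000773 RPKM. The other INK4 inhibitors were higher, CDKN2D at 32.7 ± 1.07 RPKM and CDKN2C at 19.2 ± 0.458 RPKM. The pocket protein RB1 was at 41.1, 41.5 and 43.8 RPKM and the ubiquitin ligase subunit FBXW7 at 8.30, 8.34 and 8.49 RPKM. EZH2, the Polycomb methyltransferase, was at 71.8 ± 1.25 RPKM and PHF6 at 8.58 ± 0.442 RPKM. A level gives no information on mutation. CDKN1C was, with CDKN2B, the second member under 1 RPKM, at 0.0325 RPKM.

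Of the D cyclins CCND3 alone was expressed. It was 755 times CCND2 (0.179, 0.173 and 0.197 RPKM), and CCND1 was at 0.0544, 0.0640 and 0.0400 RPKM. The partner kinases CDK4 and CDK6 were at 102, 102 and 102 RPKM and 63.3, 68.2 and 72.3 RPKM, and CDK2 at 45.5 ± 0.436 RPKM. In the BCL2 family the death inhibitors BCL2L1 (70.5, 69.6 and 68.8 RPKM) and MCL1 (48.6, 48.3 and 50.6 RPKM) were highest, and BCL2 itself was at 5.73, 5.78 and 6.18 RPKM, 11.8 times below BCL2L1. The killers BAX (39.2 ± 1.55 RPKM) and BAK1 (22.9 ± 0.346 RPKM) and the sensitiser PMAIP1 (44.6 ± 1.31 RPKM) were expressed, while BBC3 was at 0.542 ± 0.0269 RPKM, BMF at 0.211 ± 0.0261 RPKM and HRK at 0.00241 RPKM.

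Among 36 cytokine receptor and JAK-STAT genes 23 were expressed, 63.9%, near the 51.4% of all protein-coding genes. IL2RG, the common gamma chain, was at 172, 166 and 166 RPKM, 40.9 times IL7R. The STAT5-induced genes CISH (86.6 ± 2.12 RPKM), PIM1 (76.7 ± 2.14 RPKM) and SOCS1 (55.8 ± 3.04 RPKM) followed, then STAT5A (48.6 ± 0.700 RPKM). IL2RB was at 9.21 ± 0.197 RPKM. IL9R, CRLF2 and CSF2RA were listed at 0, and the myeloid receptors CSF1R and CSF3R were at 0.00337 and 0.00244 RPKM. CXCR4, the receptor for CXCL12, led 34 chemokine receptor and adhesion genes at 113, 107 and 105 RPKM, of which 21 were expressed, 61.8%, also near that share. The selectin ligand SELPLG was at 57.9 ± 1.11 RPKM, the integrin chain ITGA4 at 49.1 ± 2.08 RPKM and CD47 at 32.6 ± 0.529 RPKM. The thymic homing receptor CCR9 was at 15.7, 14.5 and 15.5 RPKM and CCR7, the lymph node homing receptor, at 3.10, 2.93 and 2.92 RPKM.

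Genes of antigen presentation split by class. B2M (392, 377 and 382 RPKM) and the class I genes HLA-C (313 ± 7.55 RPKM), HLA-B (207 ± 4.58 RPKM) and HLA-E (93.8 ± 0.896 RPKM) were high, and their order held in every library. Reads of these near-identical genes may have been split by the counting. Of the class II genes HLA-DMA alone reached 1 RPKM, at 1.76 ± 0.135 RPKM. It shares 2.17% of its exon bases with the far higher BRD2 (96.5 RPKM) on the other strand, so its level is uncertain. HLA-DRA, HLA-DQA1 and HLA-DQB1 were listed at 0, the invariant chain CD74 was at 0.0382 RPKM and the class II activator CIITA at 0.0129 RPKM.

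Markers of other blood cells were mostly near 0, and their counts stand beside 51.4% of all protein-coding genes expressed. Of 21 matched B-lineage genes 5 were expressed: IGLL1, the lambda-like chain of the pre-B-cell receptor (31.7, 33.5 and 31.6 RPKM), the receptor chains CD79A (32.2, 32.8 and 31 RPKM) and CD79B (8.95, 8.46 and 8.44 RPKM), the complement receptor CR2 (5.43 ± 0.176 RPKM) and VPREB1 (1.13 ± 0.112 RPKM). The defining B-cell genes PAX5, EBF1, MS4A1 and CD22 were listed at 0. The summed level of the list was 81.2, 83.0 and 79.2 RPKM in libraries 1, 2 and 3. Of 22 myeloid genes the protease gene CTSG alone was expressed, at 3.54, 3.63 and 3.41 RPKM, while MPO was at 0.00115 RPKM and ELANE, PRTN3 and CEBPA were listed at 0. Of 24 erythroid and megakaryocyte genes TFRC (126 ± 3.79 RPKM), the transferrin receptor of all dividing cells, and TAL1 were expressed, with HBA1, HBA2 and PF4 at 0. NKG7, EOMES and PRF1 were the 3 expressed of 17 NK-cell genes, and all of them also belong to the mature T-cell list. None of 19 matched stroma and endothelium genes was expressed, the highest being the smooth muscle gene TAGLN at 0.635 ± 0.0136 RPKM.

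Of 179 matched genes in 6 lists of non-lymphoid tissues, 13 were expressed, beside 51.4% of all protein-coding genes. In the epithelial list it was the skin keratin KRT10 (20.8, 20.9 and 20.6 RPKM), with EPCAM at 0.143 ± 0.0103 RPKM and CDH1 at 0.00591 RPKM. In the neural list these were the microtubule regulator STMN3 (78.5, 80.2 and 74.8 RPKM), the neuronal enolase ENO2 (14.4 ± 0.404 RPKM), the synaptic vesicle calcium sensor SYT1 (4.40 ± 0.202 RPKM) and BEX2 (1.17 ± 0.155 RPKM), with SNAP25 at 0 and TUBB3 at 0.00248 RPKM. In the muscle list they were MYL6B (35.3 ± 1.10 RPKM), the slow troponin TNNT1 (4.11 ± 0.0208 RPKM) and MYL4 (1.03 ± 0.0173 RPKM), with DES, MYOD1 and MYOG at 0. The meiotic cohesin STAG3 (2.82 ± 0.0252 RPKM) and PAGE5 (1.65 ± 0.206 RPKM) were the germline genes; exons of STAG3 overlap PVRIG, which was at 35.0 RPKM. The thyrotropin receptor TSHR (6.90, 7.06 and 7.26 RPKM), the melanosome gene PMEL (2.88 ± 0.0902 RPKM) and the crystallin CRYGS (1.59 ± 0.155 RPKM) were expressed in the list of kidney, lung, skin, eye and endocrine genes. PMEL overlaps CDK2 (45.5 RPKM), and CRYGS shares 14.5% of its exon bases with TBCCD1 (4.78 RPKM) on the same strand. No gene of the liver and gut list was expressed.

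**Figure D4:**
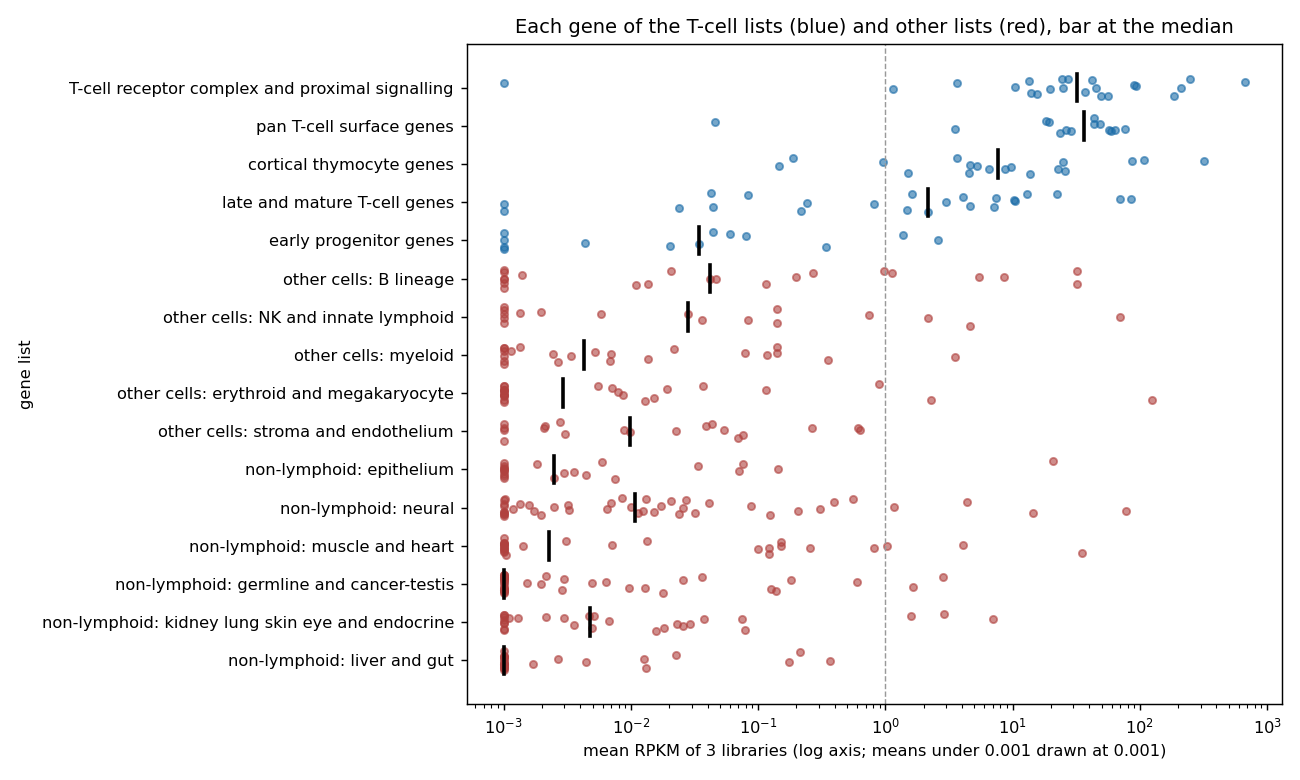
Mean RPKM over the 3 libraries (log axis) of each gene (points) in T-cell lists (blue) and in lists of other cells and tissues (red), with black bars at list medians; means under 0.001 are drawn at 0.001. The medians of the receptor, surface, cortical and mature lists lie above the dashed line at 1 RPKM, and those of the early progenitor list and of all red lists lie below it.

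Genes outside these lists that are known from other tissues were then picked after their values had been seen, as examples and with no count to be drawn from them. MYO7B, a myosin of intestinal brush borders, was at 171, 179 and 165 RPKM, as high as AEBP1, a matrix-associated carboxypeptidase-like protein, at 170, 178 and 167 RPKM. Their libraries overlapped, and both were near the level of HMGA1 (181 ± 7.21 RPKM). Of the 5 annotated neighbours on either side of MYO7B, POLR2D was the highest at 56.9 RPKM, and the nearest were IWS1 at 40.2 ± 1.04 RPKM and LIMS2 at 5.50 ± 0.270 RPKM. The neighbours of AEBP1 were POLD2 at 73.2 ± 1.99 RPKM and POLM at 26.8 ± 0.907 RPKM. CFTR, the epithelial chloride channel, was at 30.8, 29.4 and 29.9 RPKM, between ASZ1 at 0.0129 RPKM and CTTNBP2 at 0.0474 RPKM. These 3 genes were stable between libraries. Each stood above the genes on either side, but they were picked for their values, so no result is drawn from that.

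Other epithelial genes were FXYD2 (50.6 ± 1.76 RPKM), a regulator of the sodium pump in kidney, SCGB3A1 (19.3 ± 1.47 RPKM), a secretoglobin of airways, and the aminopeptidase ENPEP (13.6 ± 0.503 RPKM). Genes of matrix and muscle were MFAP4 (40.9 ± 0.513 RPKM), MYO18B (43.8 ± 1.24 RPKM) with its paralogue MYO18A at 9.37 ± 0.334 RPKM, and the protocadherin FAT1 (15.7 ± 0.854 RPKM), whose relatives FAT2, FAT3 and FAT4 were under 0.1. Neural genes were SHISA2 (44.2, 46 and 45.6 RPKM), NRN1 (38.0 ± 0.603 RPKM), the axon guidance ligand SLIT1 (31, 31.9 and 31.2 RPKM) with SLIT2 at 0.00117 and SLIT3 at 0.000965 RPKM, and the synaptic vesicle protein SV2A (20.7 ± 0.1 RPKM). PMCH, a neuropeptide precursor, was listed at 9.75 ± 0.323 RPKM, but 57.7% of its exon bases are shared with PARPBP (7.42 RPKM) on the other strand. BEST1 (76.6 ± 1.25 RPKM) shares a smaller part, 14.2% of its exon bases, with the ferritin gene FTH1 (154 ± 4.51 RPKM). For these 2 genes the level cannot be assigned.

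Some developmental regulators, likewise picked for their values, are given with their paralogues. LIN28B, which blocks let-7 processing, was at 14.9, 13.9 and 15.4 RPKM and LIN28A at 0.00398 RPKM. IRX3 (8.11, 8.26 and 8.09 RPKM) and IRX5 (5.32, 5.86 and 5.46 RPKM), homeobox genes of the same cluster, were expressed, whereas IRX2 and IRX6 were listed at 0 and IRX1 and IRX4 were under 0.1. TFAP2C was at 8.48, 8.05 and 7.61 RPKM with TFAP2A and TFAP2B at 0 and TFAP2E at 1.35 ± 0.0306 RPKM. POU3F2 was at 5.22, 5.05 and 4.81 RPKM with POU3F1 at 0.00244, POU3F3 at 0.000930 and POU3F4 at 0.00204 RPKM. POU5F1 was listed at 13.8 ± 0.361 RPKM; it has near-identical pseudogenes and overlaps TCF19, at 16.2 RPKM, so the level is uncertain, and SOX2 and NANOG were at 0. Germline genes were SYCP2 (18.4 ± 0.557 RPKM), the testis protease PRSS21 (17.0 ± 0.569 RPKM), TEX19 (14.3 ± 0.436 RPKM) and the meiotic recombinase DMC1 (7.46 ± 0.185 RPKM), while SYCP1 was at 0.00290 and SYCP3 at 0.125 ± 0.0126 RPKM. MAL, a T-cell raft protein, was at 214 ± 7.57 RPKM, AIF1 at 128 ± 2.08 RPKM and the chitinase-like CHI3L2 at 99.8 ± 1.04 RPKM.

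Enzyme and kinase families are given with their counts of expressed members, beside 51.4% of all protein-coding genes. Expressed were 4 of 9 SRC kinases, 2 of 5 lactate dehydrogenases, 3 of 4 enolases and 4 of 4 PI3K catalytic subunits. The same held for 5 of 6 RAS genes, 3 of 3 AKT genes and 7 of 9 PKC genes. With so few members each, no difference between families is drawn from these counts. Among SRC kinases LCK was 10.7 times FYN (19.7 ± 0.0577 RPKM), followed by FGR (5.08 ± 0.180 RPKM) and YES1 (4.92 ± 0.555 RPKM), and LYN and FRK were listed at 0. LDHB (500.3 ± 9.71 RPKM) was 2.33 times LDHA (214 ± 2.08 RPKM), and ENO1 (857 ± 8.19 RPKM) was 8.99 times ENO3 (95.3 ± 2.86 RPKM); ENO3 overlaps the far higher PFN1. EEF1A1 was at 310.3 ± 4.04 RPKM and EEF1A2 at 0.0228 RPKM. Among PI3K catalytic subunits the leukocyte form PIK3CD led at 21.3 ± 0.153 RPKM, with PIK3CA lowest at 4.12 ± 0.158 RPKM. NRAS (47.6 ± 1.36 RPKM) was the highest of 6 RAS genes. PKM was at 128 ± 1.53 RPKM with PKLR at 0.00721 RPKM. STMN1 was 3.67 times STMN3, with STMN2 and STMN4 under 0.1. TERT, the telomerase subunit, was at 1.35 ± 0.05 RPKM.

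The 3 libraries lay close together. The SD of log2(RPKM + 0.5) had a median of 0.04 over expressed genes. In pairs of libraries, genes with 1 transcript and at least 500 estimated reads differed by 2.00 to 2.15 times what counting noise alone would give at the estimated depths, which are rough. Of 6995 protein-coding genes with a mean of at least 5 RPKM, 4 had an SD above 0.2. EGR1, an immediate early transcription factor, varied most, at 15.1, 29 and 26.2 RPKM, an SD of 0.49. CD69, an early activation antigen, was next with an SD of 0.35. MFSD14CP (4.71, 6.21 and 4.64 RPKM) and ARRDC3, an arrestin-domain protein (5.89, 7.86 and 7.43 RPKM), had SDs of 0.22 and 0.21. All 4 were highest in library 2, and EGR1, CD69 and ARRDC3 were lowest in library 1. The others of the 10 most variable were C6orf226, SYNE2, JOSD2, VPS13C, C4orf48 and CEP350.

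Other early response genes, named after their values were seen, were also low in library 1 in part. DUSP2, a MAP kinase phosphatase, was at 27.6, 33.5 and 31.9 RPKM, FOS at 0.978, 1.32 and 1.18 RPKM and IER2 at 16.8, 18.9 and 18.4 RPKM, each lowest in library 1. JUN (1.37, 1.55 and 1.38 RPKM) and JUNB (26.5, 28.7 and 27.4 RPKM) were lowest there by small margins, whereas MYC was highest in library 1 and ZFP36 (8.80, 8.89 and 8.72 RPKM) was level. EGR2 and EGR3, relatives of EGR1, were at 0.186, 0.233 and 0.199 RPKM and 0.00738, 0.0162 and 0.00770 RPKM. What sets these differences was not tested.

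Long genes behaved differently in library 3. Among protein-coding genes of at least 5 RPKM, those with an exon length of at least 8000 bases (1266 genes) had a median log2 difference of 0.03 between library 3 and library 1, against -0.04 for those of 1000 to 2000 bases (575 genes). Between library 2 and library 1 the medians were -0.01 and 0.00. SYNE2 (4.49, 5.04 and 5.90 RPKM), a very long nuclear envelope gene, VPS13C (5.70, 6.07 and 7.22 RPKM) and the centrosomal CEP350 (8.05, 8.02 and 9.70 RPKM) were all highest in library 3. The size of this shift is small beside the differences between family members above.

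**Figure D5:**
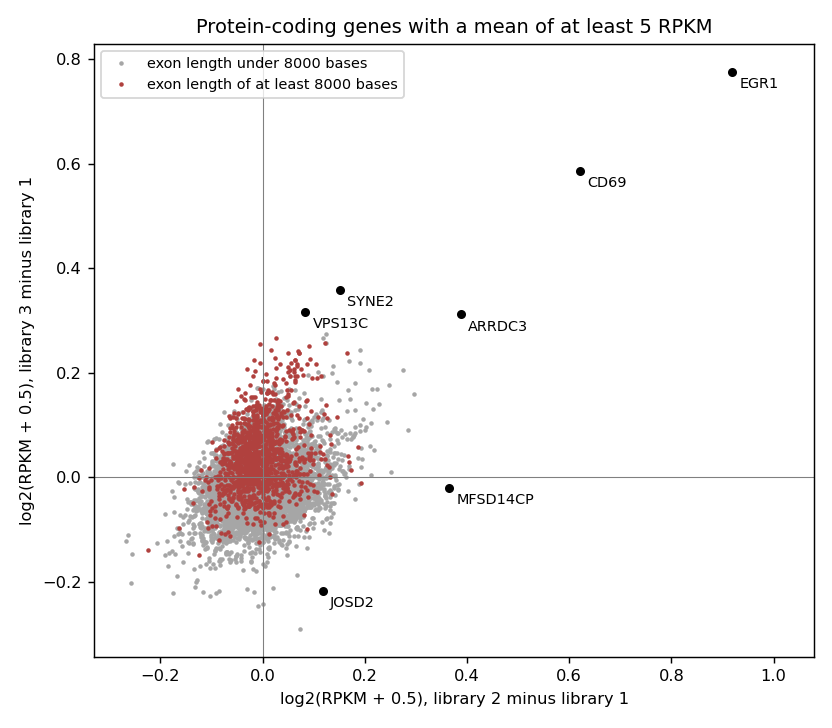
Differences of log2(RPKM + 0.5) of library 2 (horizontal) and library 3 (vertical) from library 1 for protein-coding genes with a mean of at least 5 RPKM (points), with exon lengths of at least 8000 bases in red. EGR1, CD69 and ARRDC3 lie far to the upper right, and the red points are centred above 0 on the vertical axis.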

How the data were processed

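Total RNA from KOPT-K1 cells under DMSO was sequenced in 3 libraries. Per the submitters' processing notes, reads were aligned with STAR on hg19. The sources used here do not give the counting tool, the annotation or the use of strand. The deposited values are RPKM per Ensembl gene ID, normalized by the authors, and raw counts were not used. The files of footprints and of silvestrol samples were not used.

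Symbols came from the gene name table for 49395 IDs and from GENCODE release 29 for 267 more, and 6227 IDs stayed unnamed. Where several IDs share a symbol, the ID of highest mean was taken. Means and SDs are over the 3 libraries, on the RPKM scale. Spread was computed on log2(RPKM + 0.5). The members and the gene lists were chosen with earlier results of these data known. Genes named are the fixed markers, members of the fixed lists and families, the 20 highest nuclear protein-coding genes and the 10 most variable ones. The genes of other tissues picked by eye, the early response genes and the neighbours of MYO7B, AEBP1 and CFTR were chosen after their values were seen. Depth was estimated from the smallest steps between values, and with it 92.3% to 92.9% of values came within 0.05 of a whole read. Reads over genes came to 118.6% to 119.4% of the implied totals, so the depths are rough. The scripts were tested on simulated data. Some genes of the lists and of the most abundant set are counted but not reported here by name.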

Additional observations from a re-analysis of the deposited data

How the results depend on the processing

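With the threshold at a mean of 5 RPKM the number of expressed genes was 7920 in place of 12345. The shares held by the 10, 100 and 1000 highest genes, 12.8%, 31.0% and 60.6%, were 14.6%, 32.6% and 62.9% over protein-coding genes alone. Without mitochondrially encoded genes they were 5.63%, 20.6% and 53.7%. With no filter on low values the median SD was 0.0103 on the log2 scale in place of 0.0424. Leaving out each library in turn gave 12330 to 12363 expressed genes, 9828 to 9841 protein-coding ones and 425 to 429 list members in place of 427. A threshold of 0.5 RPKM gave 14004 genes, and rescaling each library to the same sum, as in TPM, gave 14966. The median in place of the mean moved 1 of 576 named levels by more than 1 SD, and that rescaling moved all 576. The 97 list and family counts stayed within 1.5 times under the median, under equal medians and without each library, while 6 moved at 0.5 RPKM, 31 at 5 RPKM, 10 after that rescaling and 1 without mitochondrial genes. No paired analysis was possible because only 1 group was used. Depth limits what can be said of levels near 0, and a gene listed at 0 may still be transcribed.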

Other observations

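Traces of stromal genes, all below 1 RPKM, were not equal between libraries. Of 19 stroma and endothelium genes, 12 were highest in library 3, 2 in library 2 and 2 in library 1. The matching share over all genes is not given here, so this count alone does not set the list apart. The collagen gene COL3A1 was at 0.0140, 0.0440 and 0.149 RPKM, COL1A1 at 0.0128, 0.0352 and 0.0698 RPKM and COL1A2 at 0.00643, 0.0165 and 0.0447 RPKM. GFAP, an astrocyte filament, was at 0.0118, 0.0167 and 0.0952 RPKM. The summed level of the stroma list was 1.65, 1.76 and 2.12 RPKM in libraries 1, 2 and 3. The part of other material in these values was not tested.

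Larger gene families of structural proteins were represented by few members. Of 54 collagen genes and pseudogenes 3 were expressed, beside 22.1% of all genes. They were COL7A1 (1.91 ± 0.105 RPKM), COL5A2 (1.33 ± 0.0971 RPKM) and COL18A1 (1.24 ± 0.0416 RPKM). COL18A1 shares 16.4% of its exon bases with SLC19A1 (6.66 RPKM) on the other strand. Of 202 IDs with a keratin symbol, many of them pseudogenes, 3 reached 1 RPKM and 145 were listed at 0. The 3 were KRT10, the pseudogene KRT8P12 (1.23 RPKM) and KRT10-AS1 (3.31 RPKM). KRT10-AS1 lies on the strand opposite KRT10, is named after it and shares 2.37% of its exon bases with it. KRT8P12 shares 6.94% of its exon bases with KPNA4 (16.9 RPKM) on the other strand. The levels of KRT10-AS1 and KRT8P12 are therefore uncertain. None of 17 interferon alpha genes and pseudogenes reached 1 RPKM, and 11 were listed at 0.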
